A study of Mus musculus with 4 samples.

Results

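The 9 genes described here, Rcvrn, Gnat1, Sag, Opn1sw, Crx, Rbp3, Rlbp1, Rpe65 and Rgr, belong to the photoreceptors of the retina, the pigment epithelium behind them and the Müller glia. They were picked by name among 22999 gene symbols in the count tables, with earlier results of these data known. Each was read from its RefSeq ID (the one with the higher mean count where a gene has several). RNA-seq was performed on mTEChi, epithelial cells of the thymic medulla with abundant MHC class II, sorted from thymi of B6 mice, 4 mice pooled for each library. The 4 libraries comprised 2 labelled WT and 2 labelled Aire-KO (Aire-/-, on the B6 background), with 1 of each genotype in a first experiment and 1 of each in a replicate experiment. They are called WT 1, WT 2, Aire-KO 1 and Aire-KO 2 below, where 1 is the first experiment and 2 the replicate experiment. Mice were 4 weeks old according to the isolation protocol. Per the study's methods, wild-type B6 mice were purchased and Aire-deficient mice were provided by another laboratory. Genotype and origin of the mice therefore cannot be told apart. The labels name no other allele or agent in any group.

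mTEChi transcribe a very large number of genes whose products are otherwise confined to peripheral organs, and Aire is the transcriptional regulator needed for many of them. Display of these self-antigens leads to deletion of thymocytes that recognise them. Inflammation of the eye is a known feature of Aire deficiency in mice, with Rbp3 (IRBP, the retinoid-binding protein between photoreceptors and pigment epithelium) as a dominant target, and Sag (arrestin of rods, S-antigen) is a classical autoantigen of experimental uveitis. In the eye, light isomerises the retinal bound to opsin, a G protein and a phosphodiesterase carry the signal, arrestin and recoverin shape its end, and the visual cycle rebuilds the chromophore.

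The number of counts summed over all RefSeq IDs was between 111077552 and 191404483 in the WT libraries and between 168899954 and 242862323 in the Aire-KO libraries. Reads were detected for 29295 RefSeq IDs in WT 1 and 27354 in Aire-KO 1, against 27716 in WT 2 and 25877 in Aire-KO 2. Aire itself was read from its RefSeq ID with the highest mean count, NR_073358, a noncoding entry. It had 87229 and 36597 counts in WT 1 and WT 2 but 200697 and 175884 in Aire-KO 1 and Aire-KO 2. The Aire counts were thus higher in the libraries labelled Aire-KO, opposite to the label (log2 fold change of WT over Aire-KO −1.61, edgeR adjusted p = 0.088). The deleted part of the allele is not given in the sources used here, so these counts neither check nor refute the labels. Directions below are those of the libraries as labelled. Of a list of 17 mTEC markers, Cd74, H2-Aa, H2-Ab1, Epcam and Krt5 were among those abundant in all 4 libraries. Their abundance does not measure the purity of the sorted cells, and markers of other cells are given below. In bulk RNA, fewer cells that express a gene and less RNA per cell cannot be told apart.

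All 9 genes had reads in both WT libraries, from 21 counts (Rpe65 in WT 2) to 1056 (Rlbp1 in WT 1). Both WT libraries lay above both Aire-KO libraries in CPM (counts scaled to the library total) for 8 of the 9 genes and below them for 1, Rgr. This separation was found for 36.9% of all 26790 RefSeq IDs tested in the first direction and for 9.73% in the other. In edgeR's quasi-likelihood test, 3 of the 9 (Rbp3, Rlbp1 and Crx) were higher in WT at an adjusted p under 0.05, 1 (Rgr) was lower and 5 did not pass. Over all RefSeq IDs tested, 5.58% were called higher in WT and 0.258% lower. Since the 9 were chosen with earlier results known, these shares are a background and not a test of the 9. With the experiment as a block, Gnat1 and Rcvrn passed too, which made 5 higher and 1 lower, against 16.5% and 10.4% of all RefSeq IDs in that fit.

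**Figure D1:**
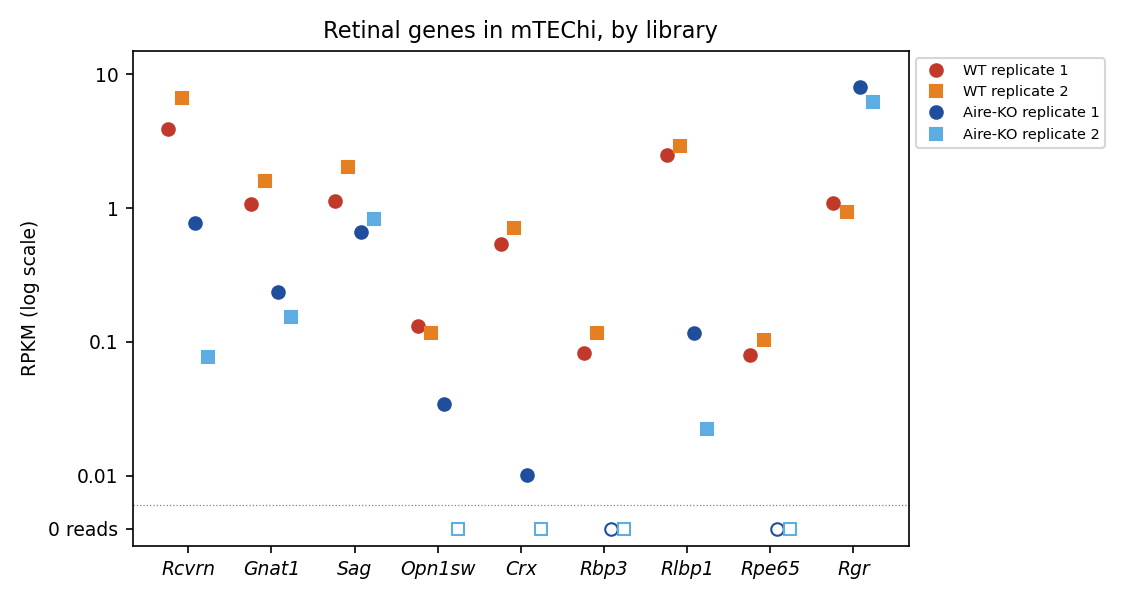
RPKM (reads scaled to transcript length and library total, log axis) of the 9 genes in each of the 4 libraries, with open symbols on the lowest line for 0 reads. The 2 WT libraries (red, orange) sit above the 2 Aire-KO libraries (blues) for every gene except Rgr, and Rbp3 and Rpe65 have no read in either Aire-KO library.

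Per length, the order of the levels differed between the genotypes. In WT, Rcvrn was the most abundant, at 5.27 ± 1.97 RPKM (SD, n = 2). It was followed by Rlbp1 at 2.71 ± 0.287, Sag at 1.58 ± 0.644, Gnat1 at 1.34 ± 0.373, Rgr at 1.01 ± 0.102 and Crx at 0.625 ± 0.116 RPKM. Opn1sw (0.124 ± 0.0116), Rbp3 (0.0991 ± 0.0239) and Rpe65 (0.0910 ± 0.0164 RPKM) closed the order. The ranges of the WT libraries overlapped between Sag and Gnat1, between Gnat1 and Rgr, between Opn1sw and Rbp3 and between Rbp3 and Rpe65, so that these neighbours could not be ordered. In Aire-KO, Rgr came first at 7.11 ± 1.32 RPKM and Sag next at 0.750 ± 0.119, while Rcvrn averaged 0.423 ± 0.489 RPKM with a spread as large as its mean. Among 21379 genes ranked by RPKM, Rcvrn stood above 53.1% of genes in WT 1 and above 65.9% in WT 2. Rbp3 stood above 12.9% and 16.8% of genes only. These are low levels for a transcriptome, and the 83 and 68 reads of Rbp3 in WT 1 and WT 2 are what its values rest on.

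Of the photoreceptor signalling genes, Rcvrn encodes recoverin, a calcium sensor of photoreceptors (NM_009038, mm9 chr11:67508828-67516835, plus strand). Rcvrn had 787 and 786 counts in WT 1 and WT 2, and 138 and 20 in Aire-KO 1 and Aire-KO 2, or 3.87 and 6.66 RPKM against 0.769 and 0.0775. The groups did not overlap, but the Aire-KO libraries were far apart from each other. WT exceeded Aire-KO 3.79-fold in the first experiment and 75.8-fold in the replicate experiment (TMM-scaled counts). The log2 fold change was 3.31 ± 1.08 (SE), which did not pass (edgeR adjusted p = 0.138), whereas with the experiment as a block it was 3.92 and passed (edgeR adjusted p = 0.0061). Leaving out any 1 of the 4 libraries also brought Rcvrn past the threshold, with log2 fold changes from 2.42 (without Aire-KO 2) to 5.86 (without Aire-KO 1). In these fits the genotype left with a lone library is assumed to vary like the other.

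Gnat1 encodes the alpha subunit of rod transducin, the G protein of the rod light response (NM_008140, mm9 chr9:107576808-107581923, minus strand). Counts of Gnat1 were 454 and 393 in WT 1 and WT 2 and 88 and 82 in Aire-KO 1 and Aire-KO 2, that is 1.07 and 1.60 RPKM against 0.236 and 0.153. Raw counts of replicates were close, but scaled to depth WT 2 was above WT 1 and Aire-KO 2 below Aire-KO 1. The groups did not overlap, with a 3.42-fold difference in the first experiment and 9.24-fold in the replicate experiment. Its log2 fold change of 2.48 ± 0.61 (SE) missed the threshold (edgeR adjusted p = 0.067). It passed with the experiment as a block (edgeR adjusted p = 0.0068), with library sizes alone (edgeR adjusted p = 0.036) and in DESeq2 (adjusted p = 0.0012). It also passed without a filter on low counts, without WT 1, without Aire-KO 1 or without Aire-KO 2, at log2 fold changes of 2.48, 2.72, 2.91 and 2.14, but not without WT 2 (2.14, edgeR adjusted p = 0.275).

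Sag was the gene with the smallest difference (NM_009118, mm9 chr1:89700255-89741733, plus strand). Sag had 371 and 389 counts in WT 1 and WT 2 and 193 and 348 in Aire-KO 1 and Aire-KO 2. On the RPKM scale these were 1.13 and 2.04 against 0.665 and 0.834, so that the groups did not overlap, with WT 1.28-fold above Aire-KO in the first experiment and 2.16-fold in the replicate experiment. The log2 fold change was 0.80 ± 0.55 (SE) and did not pass (edgeR adjusted p = 0.517), nor did it in any of the alternatives run. Sag RNA was therefore readily detected in the libraries labelled Aire-KO.

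Opn1sw, the short-wavelength opsin of cones, was among the scarcest (NM_007538, minus strand, GENCODE vM1 gene model at mm9 chr6:29326671-29338468). Opn1sw had 61 and 31 counts in WT 1 and WT 2, 14 in Aire-KO 1 and 0 in Aire-KO 2. WT exceeded Aire-KO 2.89-fold in the first experiment and at least 19.9-fold in the replicate experiment, taking 3 counts as the limit that a count of 0 allows in a library. The log2 fold change of 2.54 ± 1.56 (SE) did not pass (edgeR adjusted p = 0.455). Without Aire-KO 1 it passed at a log2 fold change of 8.68 (edgeR adjusted p = 0.0052), a value set by the prior count because the remaining Aire-KO library had no read. Leaving out Aire-KO 1 also raised the RefSeq IDs called higher in WT from 1495 to 3664. The distal part of the Opn1sw 3’UTR (mm9 chr6:29326671-29327384, 714 bp) shares 397 bp, 55.6% of its length, with exons of Calu on the opposite strand. The library kit did not keep the strand, so reads of both genes cannot be told apart there. Outside this region Opn1sw had 50 and 11 reads in WT 1 and WT 2 and 7 and 0 in Aire-KO 1 and Aire-KO 2, and the log2 fold change without the reads of distal 3’UTRs was 2.65 (edgeR adjusted p = 0.435, an alternative chosen after seeing the data). Calu itself, a calcium-binding protein of the secretory pathway, was abundant, with 9332 to 21758 counts.

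Crx is the homeobox transcription factor that activates photoreceptor genes in rods, cones and the pineal gland (NM_007770, mm9 chr7:16451296-16465317, minus strand). Crx had 302 and 228 counts in WT 1 and WT 2, 5 in Aire-KO 1 and 0 in Aire-KO 2. It was thus close to absent from the Aire-KO libraries, with WT 40.1-fold higher in the first experiment and at least 147-fold higher in the replicate experiment. The log2 fold change was 6.71 ± 1.31 (SE) and passed (edgeR adjusted p = 0.041), and it passed in all of the alternatives run across libraries. A second RefSeq ID of Crx, NM_001113330, covers the same last exon and gave the same test of its parts.

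Among the genes of the visual cycle and the pigment epithelium, Rbp3 (NM_015745, mm9 chr14:34767208-34777402, plus strand) had 83 and 68 counts in WT 1 and WT 2 and 0 in both Aire-KO libraries. These are 0.0822 and 0.116 RPKM in WT, and WT was at least 28.2-fold higher than Aire-KO over both experiments, at least 18.4-fold in the first and at least 43.7-fold in the second. Rbp3 was called higher in WT (edgeR adjusted p = 0.036). The call held in every alternative run across libraries, those that left out a library included.

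Rlbp1 encodes CRALBP, the carrier of 11-cis-retinoids in pigment epithelium and Müller glia (NM_020599, mm9 chr7:86519757-86531913, minus strand). Rlbp1 was present at 1056 and 712 counts in WT 1 and WT 2 and at 43 and 12 in Aire-KO 1 and Aire-KO 2, or 2.51 and 2.91 RPKM against 0.116 and 0.0224. WT libraries were close to each other and well separated from the Aire-KO libraries. The difference was 16.3-fold in the first experiment, 114-fold in the replicate experiment and 31.0-fold between the means. The log2 fold change of 4.98 ± 0.91 (SE) passed (edgeR adjusted p = 0.036), as in all of the alternatives run across libraries.

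Rpe65, the isomerohydrolase of the pigment epithelium that forms 11-cis-retinol, had only 28 and 21 counts in WT 1 and WT 2 and 0 in both Aire-KO libraries (NM_029987, mm9 chr3:159262197-159287763, plus strand). The levels in WT were 0.0794 and 0.103 RPKM, at least 9.02-fold above Aire-KO. Groups were separate, but Rpe65 did not pass (edgeR adjusted p = 0.062). It passed without Aire-KO 1 (edgeR adjusted p = 0.033), with library sizes alone (edgeR adjusted p = 0.044) and in DESeq2 (adjusted p = 0.031), and not with the experiment as a block (edgeR adjusted p = 0.054). Of the 9 genes, Rbp3 and Rpe65 were the ones with no read in Aire-KO. Opn1sw had fewer WT counts than Rbp3 (61 and 31 against 83 and 68), yet had 14 counts in Aire-KO 1.

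Rgr ran the other way. It encodes an opsin-like retinal G protein-coupled receptor of pigment epithelium and Müller glia that binds all-trans-retinal (NM_021340, mm9 chr14:37850676-37862150, minus strand). Rgr had 344 and 173 counts in WT 1 and WT 2 and 2256 and 2489 in Aire-KO 1 and Aire-KO 2, or 1.08 and 0.939 RPKM against 8.05 and 6.18. The Aire-KO libraries exceeded the WT libraries 9.88-fold in the first experiment and 7.46-fold in the replicate experiment. Rgr stood above 34.1% and 34.4% of genes in WT 1 and WT 2 but above 70.9% and 66.8% in Aire-KO 1 and Aire-KO 2. The log2 fold change was −3.12 ± 0.44 (SE; edgeR adjusted p = 0.022), the smallest error of the 9 genes, and it stayed past the threshold in every alternative run across libraries.

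**Figure D2:**
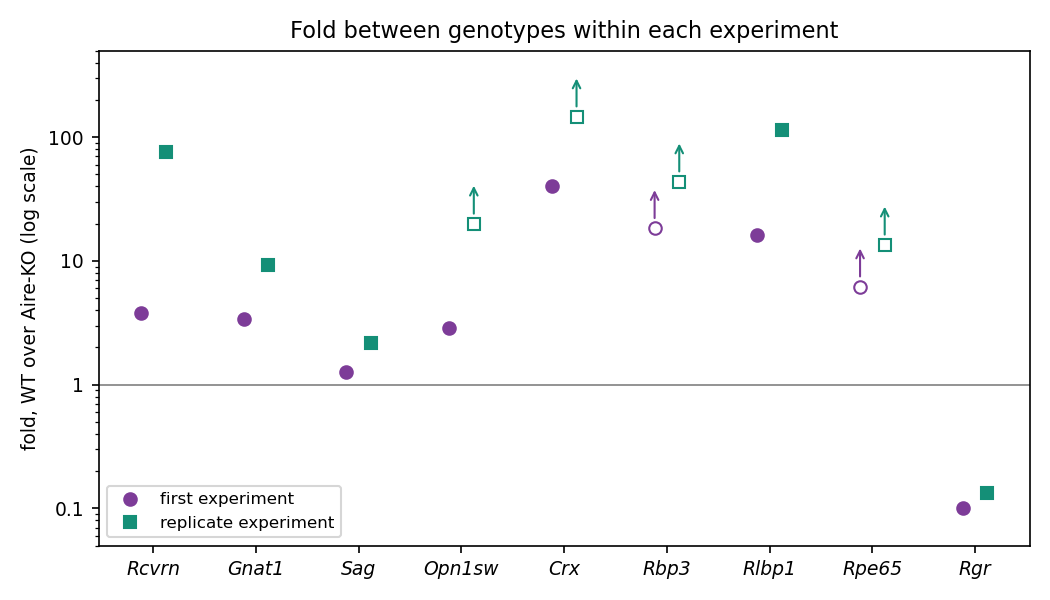
Fold of WT over Aire-KO (TMM-scaled counts, log axis) for the 9 genes in the first experiment (circles) and the replicate experiment (squares), where open symbols with an arrow are lower bounds taken from 3 counts in a library with 0. The fold of Rcvrn goes from 3.79 to 75.8 between experiments, whereas Rgr is at 0.101 and 0.134.

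The 2 experiments agreed in direction for all 9 genes and differed in size. Where both experiments gave a fold, WT over Aire-KO was larger in the replicate experiment for Rcvrn, Gnat1, Sag, Rlbp1 and Rgr (for Rgr, nearer to 1). In CPM, WT 2 was above WT 1 for 7 of the 9 genes, and Aire-KO 1 was above Aire-KO 2 for 6 of the 7 genes that had reads in Aire-KO, Sag being the exception. With 1 library of each genotype per experiment, the difference between experiments could not be tested.

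Where on the transcript the reads lie was compared through the parts of each RefSeq ID, namely the 5’UTR, the coding exons before the last, the last exon up to the proximal polyadenylation site, and the distal 3’UTR (d3’UTR) beyond that site where one is annotated. For Rbp3, 54.3% and 55.2% of reads in WT 1 and WT 2 fell in coding exons before the last, which make up 64.1% of its length. Reads of Rbp3 thus covered the coding region and not a stray 3’ piece alone. The 2 genotypes were alike for Rgr, with 30.6% and 28.9% of reads in these exons in WT 1 and WT 2 and 34.5% and 35.8% in Aire-KO 1 and Aire-KO 2. Rpe65 had 23 of its 28 reads in these exons in WT 1 and all of its 21 in WT 2.

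Some genes leaned to the 3’ end, Rgr among them. In Rgr, the last exon up to the proximal site held 69.4% and 71.1% of reads in WT 1 and WT 2, on 49.2% of the length. Gnat1 had 79.1% and 72.4% of its reads in the last exon in WT 1 and WT 2, and 79.3% and 80.8% in Aire-KO 1 and Aire-KO 2. The last exon makes up 59.0% of the length of Gnat1 and 38.5% of that of Rlbp1. In Rlbp1, the last exon held 52.6% and 62.3% of reads in WT 1 and WT 2, but 36 of 43 reads in Aire-KO 1 and 8 of 12 in Aire-KO 2. None of the Aire-KO reads of Rlbp1 fell in the 5’UTR, which held 5.03% and 6.92% of reads (53 and 49) in WT 1 and WT 2. At such shares, few of the 43 and 12 Aire-KO reads would be expected there. For Opn1sw, WT 2 had 1 of 31 reads in the coding exons before the last and 20 in the d3’UTR, which Calu overlaps in part. How many of these 20 reads lie in the 397 bp shared with Calu is not given by the counts. WT 1 had 29 of 61 reads in the coding exons.

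**Figure D3:**
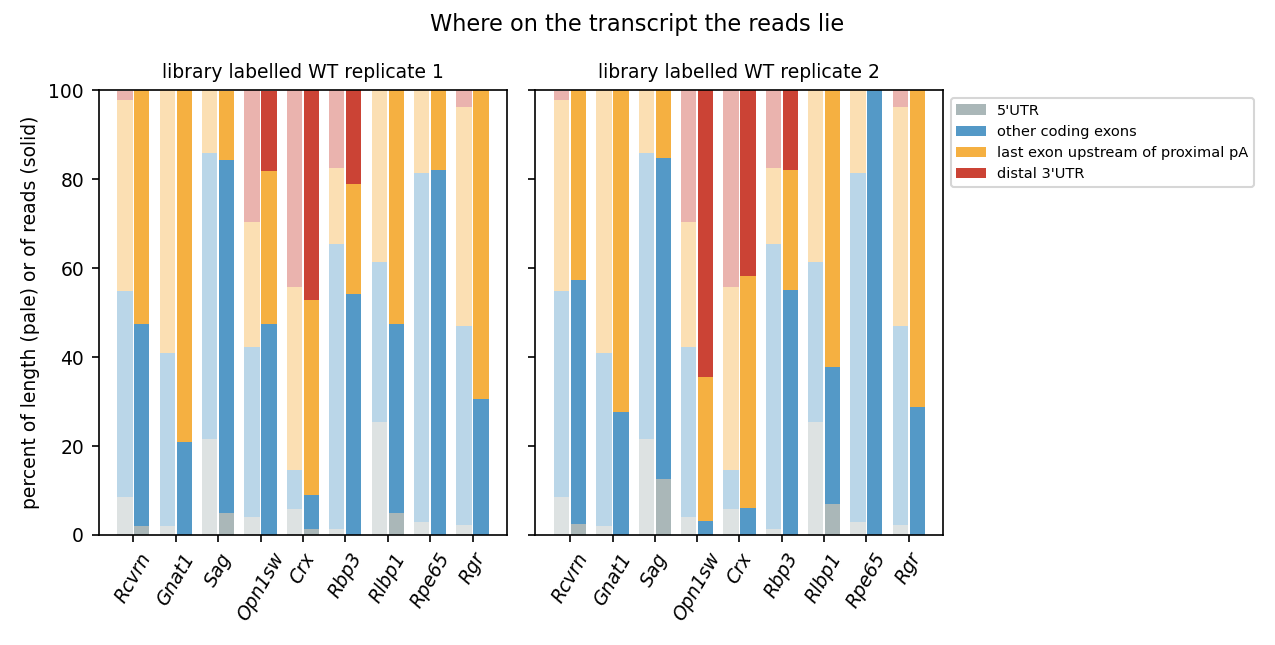
Percent of transcript length (pale bars) and percent of reads (solid bars) in each part of the transcript for the 9 genes, in WT 1 (left) and WT 2 (right). Rbp3 and Sag have most of their reads in coding exons before the last, Gnat1 leans to the last exon, and in Opn1sw the d3’UTR goes from 18.0% of reads in WT 1 to 64.5% in WT 2.

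The d3’UTR ratio divides the reads per kilobase downstream of the proximal site by those in the rest of the last exon, and a low value means a preference for the short 3’UTR isoform. Crx had a ratio of 1.01 in WT 1 (143 and 133 reads, exact 95% interval 0.789 to 1.28) and 0.747 in WT 2 (0.564 to 0.986). The ratio of Rbp3 was 0.834 (0.410 to 1.68) and 0.654 (0.287 to 1.44) in WT 1 and WT 2. Over all RefSeq IDs with a d3’UTR the medians were 0.436 and 0.351 in WT 1 and WT 2, with upper quartiles of 0.866 and 0.764. The ratios of Crx and Rbp3 were above the median in both libraries. The intervals of Crx lie above these medians, whereas those of Rbp3 include them. Opn1sw had 0.497 and 1.90 in WT 1 and WT 2, over a d3’UTR that is shared in part with Calu. The intervals cover counting error only.

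A change of d3’UTR usage with genotype could be fitted for Crx (log2 change −0.62 ± 1.37, SE, edgeR adjusted p = 1) and Opn1sw (−1.38 ± 2.24, edgeR adjusted p = 1), on 5 and 8 Aire-KO reads respectively in the regions compared. In that test edgeR called 0% of 7842 RefSeq IDs, with 144 at an unadjusted p under 0.05 (433 with the experiment as a block, of which 0 passed after adjustment). Rbp3 had no read in Aire-KO and gave no usable value. The d3’UTRs of Rcvrn (22 bp) and Rgr (62 bp) are shorter than or close to the 50 bp reads, so that 0 to 2 reads fell wholly inside them.

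Promoter sequence was looked at because 8 genes lay on one side and Rgr on the other. Windows from 250 bases before to 50 bases after the RefSeq start (RefSeq sequences of the GRCm38.p6 table, placed on mm9 by exact match) were found for 7 of the 9 genes, which leaves out Gnat1 and Rcvrn. TAATCC, the core of the site that CRX and OTX2 recognise, was searched on both strands (GGATTA on the opposite one). It occurred in 5 of the 7 (Crx, Rbp3, Rpe65, Sag and Rgr), against 7.06% of 32851 promoters of the same length. The stretches with the site in capitals are shown 5’ to 3’ on the strand of the gene, since they include genes of both directions.
Crx, 94 bases before the start, mm9 chr7:16465383-16465408, minus strand: gggggtggtgGGATTAagcagacggt
Crx, 21 bases before the start, mm9 chr7:16465310-16465335, minus strand: accttccctgGGATTAcccttccaga
Rbp3, 69 bases before the start, mm9 chr14:34767110-34767135, plus strand: gaattagacaGGATTAaaggcttagc
Rpe65, 42 bases before the start, mm9 chr3:159262093-159262118, plus strand: cctccaataaGGATTAgattgcatac
Sag, 87 bases before the start, mm9 chr1:89700158-89700183, plus strand: aagaggtttaGGATTAaaaaaaaaaa
Rgr, 167 bases before the start, mm9 chr14:37862352-37862377, minus strand: tccaagacctTAATCCtgcctagtgg

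The carriers of TAATCC included genes called higher in WT (Crx, Rbp3), the one called lower (Rgr) and the one with the smallest difference (Sag), while Rlbp1 and Opn1sw had no match in this window. A related sequence, TAAGCC, searched like the first on both strands, occurred in 4 of the 7 (Crx, Opn1sw, Rbp3 and Sag) against 9.48% of promoters. In Rbp3 it lies downstream of the TAATCC match without overlap. TGCTGA, part of the site of the rod factor NRL, occurred in 4 of the 7 (Opn1sw, Rbp3, Rlbp1 and Sag) against 19.5% of promoters, and TATAAA in 2 of the 7 (Rlbp1 and Sag) against 13.6%. Both of these sequences were searched on both strands too. The matches of TATAAA in Rlbp1 and Sag both lie on the strand opposite to the gene. Neither window holds this sequence on the strand of the gene. The matches of all sequences searched are letters in a window and not evidence of binding in mTEChi.

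The genes next to the 9 on the chromosome were taken from the RefSeq order of protein-coding genes, 21 in all, of which 19 could be tested. Of these, 3 were called higher in WT and 0 lower in edgeR, against the 5.58% and 0.258% given above. Crxos, beside Crx, had 118 and 90 counts in WT 1 and WT 2 and 6 and 5 in Aire-KO 1 and Aire-KO 2 (log2 fold change 4.36 ± 0.90, SE, edgeR adjusted p = 0.046). Slc38a3, a glutamine transporter beside Gnat1, had 1825 and 1193 counts in WT 1 and WT 2 and 110 and 223 in Aire-KO 1 and Aire-KO 2 (3.41 ± 0.46, edgeR adjusted p = 0.020). Fam71f1, beside Opn1sw, had 76 and 84 counts in WT 1 and WT 2 and 0 in both Aire-KO libraries, at least 31.2-fold (edgeR adjusted p = 0.037). Around Rlbp1 and Rpe65 the nearest genes (Abhd2, Fanci, Depdc1a and Wls) had log2 fold changes between −0.11 and 0.46, and none passed. Beside Rbp3, Gdf2 (4.06 ± 1.37, SE) and Zfp488 (3.35 ± 1.25) had both WT libraries above both Aire-KO libraries. Neither passed (edgeR adjusted p = 0.148 and 0.189). Gas7, beside Rcvrn, had both WT libraries below (−1.69 ± 0.38, edgeR adjusted p = 0.055). Beside Sag, Atg16l1 (−0.26 ± 0.34) and Dgkd (−0.37 ± 0.36) had overlapping groups. Glp2r, whose locus overlaps Rcvrn, had 1423 and 628 counts in WT 1 and WT 2, 880 in Aire-KO 1 and 33 in Aire-KO 2, so that it too was much lower in Aire-KO 2 than in Aire-KO 1.

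The neighbours of Rgr also leaned to Aire-KO. Lrit1, a leucine-rich repeat membrane protein of photoreceptors whose locus overlaps that of Rgr in RefSeq, had 414 and 267 counts in WT 1 and WT 2 and 2663 and 1533 in Aire-KO 1 and Aire-KO 2 (log2 fold change −2.60 ± 0.59, SE, edgeR adjusted p = 0.057). Lrit2, the next gene, had 514 and 185 counts in WT 1 and WT 2 and 1597 and 902 in Aire-KO 1 and Aire-KO 2 (−1.93 ± 0.62, edgeR adjusted p = 0.130). On the other side, Ccser2 had −1.15 ± 0.56 (edgeR adjusted p = 0.328) with overlapping groups. None of these 3 passed. The exons of Rgr share no base with those of another gene in the mm9 annotation (GENCODE vM1). Reads were counted on RefSeq models, whose exon overlap was not examined, so sharing of reads with Lrit1 was not tested.

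**Figure D4:**
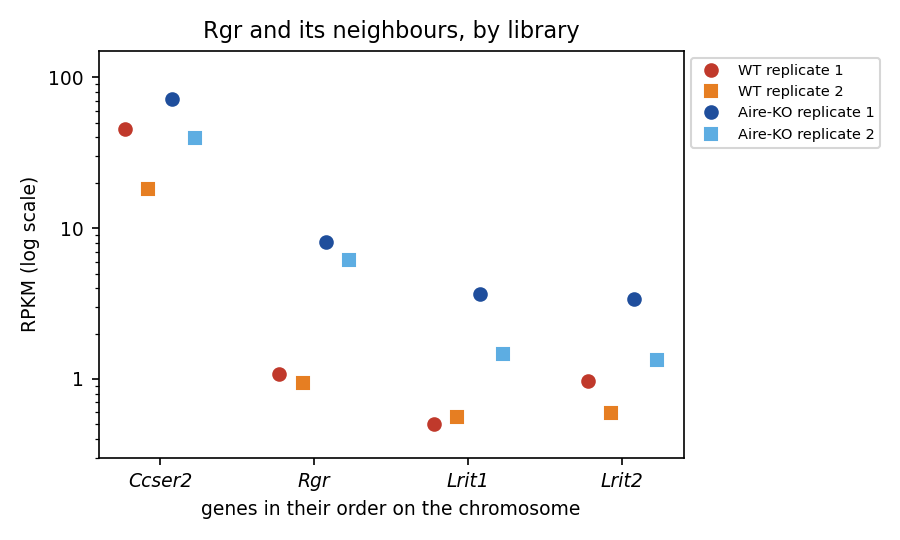
RPKM (log axis) of Rgr and its nearest protein-coding genes in their order on the chromosome, in each of the 4 libraries. Rgr, Lrit1 and Lrit2 have both Aire-KO libraries (blues) above both WT libraries, whereas the libraries of Ccser2 overlap.

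The genes most like Rbp3 over the 4 libraries, by the Euclidean distance of centred log2 CPM among 1264 genes of similar RPKM, were Nlrp12, Tyr and Avpr1b (distances 0.038, 0.089 and 0.096). Each had 68 to 87 counts in the WT libraries and 4 to 8 in the Aire-KO libraries. Those most like Rgr, among 5186 genes, were Acot12, I830077J02Rik and Hk3 (0.277, 0.349 and 0.609). Acot12, a cytosolic acetyl-CoA thioesterase, had a log2 fold change of −2.78, I830077J02Rik of −3.16 and Hk3, a hexokinase of myeloid cells, of −2.95, and all 3 were lower in WT (edgeR adjusted p = 0.023, 0.028 and 0.023).

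Other genes of the retina were read from lists of the same fit, beside a median log2 fold change of −0.03 over all RefSeq IDs tested and the shares of 5.58% called higher and 0.258% called lower, or 16.5% and 10.4% with the experiment as a block. No list is called apart from the rest on these counts. Of the 21 rod phototransduction genes, which include Rcvrn, Gnat1 and Sag, 0 passed in either direction in edgeR, with 11 at an unadjusted p under 0.05 and a median log2 fold change of 1.46. With the experiment as a block 9 were higher, Gnat1 and Rcvrn among them, and 1 lower. The most abundant were Gnb1 (76.1 and 72.0 RPKM in WT 1 and WT 2, 69.7 and 98.8 in Aire-KO 1 and Aire-KO 2), a G protein subunit of most cells, Rgs9 and Rcvrn.

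Of the 11 cone genes, 1 was higher in WT and 0 lower (3 and 1 with the block), with a median of 1.40. Pde6h, the inhibitory subunit of cone phosphodiesterase, had 586 and 690 counts in WT 1 and WT 2 and 33 and 60 in Aire-KO 1 and Aire-KO 2 (4.11 ± 0.64, edgeR adjusted p = 0.027). Gnb3, the most abundant gene of this list, did not pass (0.59 ± 0.51, edgeR adjusted p = 0.624), and Gngt2 did not either (0.27 ± 0.70, edgeR adjusted p = 0.899).

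Of the 23 visual cycle and pigment epithelium genes, 3 were higher in WT (Rbp3, Rlbp1 and Tyr) and 1 lower (Rgr), with a median of 1.50. Apart from the 9 genes described above this leaves 1 higher and 0 lower, and the block gave 10 higher and 3 lower in the whole list. Tyr, the tyrosinase of melanin synthesis in pigment epithelium and melanocytes, had 84 and 80 counts in WT 1 and WT 2 and 4 and 5 in Aire-KO 1 and Aire-KO 2 (4.39 ± 0.93, edgeR adjusted p = 0.049). The most abundant, Stra6 (−0.69 ± 0.35), Ttr (1.99 ± 0.79) and Rdh12 (1.50 ± 0.44), did not pass (edgeR adjusted p = 0.351, 0.218 and 0.104). Lrat, which esterifies retinol upstream of Rpe65, had values in the direction of Rgr. Lrat had 4322 and 1006 counts in WT 1 and WT 2 and 12451 and 6516 in Aire-KO 1 and Aire-KO 2. It did not pass (−2.02 ± 0.67, edgeR adjusted p = 0.142). Grk1 of the rod list (−1.85 ± 0.44, edgeR adjusted p = 0.064) and Cnga3 of the cone list (−1.45 ± 0.47, edgeR adjusted p = 0.130) had this direction too, without passing. These 3 were named after their values were seen. Both WT libraries lay below both Aire-KO libraries for 1 rod, 1 cone and 3 visual cycle genes, and above for 14, 8 and 15. Over all RefSeq IDs, 9.73% lay below and 36.9% above.

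Of the 16 transcription factors, 3 were higher in WT (Crx, Nr2e3 and Neurod1) and 0 lower (8 and 1 with the block), with a median of 2.03. Nr2e3, the rod nuclear receptor, had 150 and 87 counts in WT 1 and WT 2 and 6 in each Aire-KO library (4.39 ± 0.85, edgeR adjusted p = 0.040). Neurod1, shared with neurons and endocrine cells, had 294 and 115 against 12 and 30 (3.42 ± 0.72, edgeR adjusted p = 0.048). Thrb, Nrl and Prdm1, the most abundant of this list, did not pass (−1.04 ± 0.62, 0.87 ± 0.44 and 0.78 ± 0.57). Nrl, the rod-specifying factor, was thus present in both genotypes, with 1827 and 1671 counts in WT 1 and WT 2 and 972 and 1280 in Aire-KO 1 and Aire-KO 2.

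Of 16 outer segment and structural genes tested, 2 were higher in WT (Aipl1 and Prom1) and 0 lower (4 and 2 with the block), with a median of 0.34. Aipl1, the chaperone of rod and cone phosphodiesterase, had 2029 and 1334 counts in WT 1 and WT 2 and 3 and 24 in Aire-KO 1 and Aire-KO 2 (7.27 ± 0.83, edgeR adjusted p = 0.018). Prom1, found in many epithelia, had 2.25 ± 0.39 (edgeR adjusted p = 0.034), while the abundant Cdhr1 (−0.98 ± 0.38), Rom1 (−0.39 ± 0.44) and Unc119 (0.20 ± 0.60) did not pass.

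Of 15 inner retina genes tested, 2 were higher in WT and 0 lower (4 and 3 with the block), with a median of 0.85. Opn4, the melanopsin of light-sensitive ganglion cells, had 496 and 262 counts in WT 1 and WT 2 and 0 in both Aire-KO libraries, at least 132-fold (edgeR adjusted p = 0.018). Grm6, the glutamate receptor of ON bipolar cells, had 270 and 147 against 16 and 12 (3.94 ± 0.76, edgeR adjusted p = 0.040). The abundant Rbpms (−1.22 ± 0.35), Isl1 (0.31 ± 0.61) and Slc6a9 (−0.04 ± 0.44) did not pass. Of 7 pineal genes tested, 0 passed in edgeR, with 1 at an unadjusted p under 0.05, 1 higher and 1 lower with the block, and a median of 0.32, and Tph1, Opn3 and Gch1 were the most abundant. The medians were the same with genes at 0 in both Aire-KO libraries set to their lower bound.

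**Figure D5:**
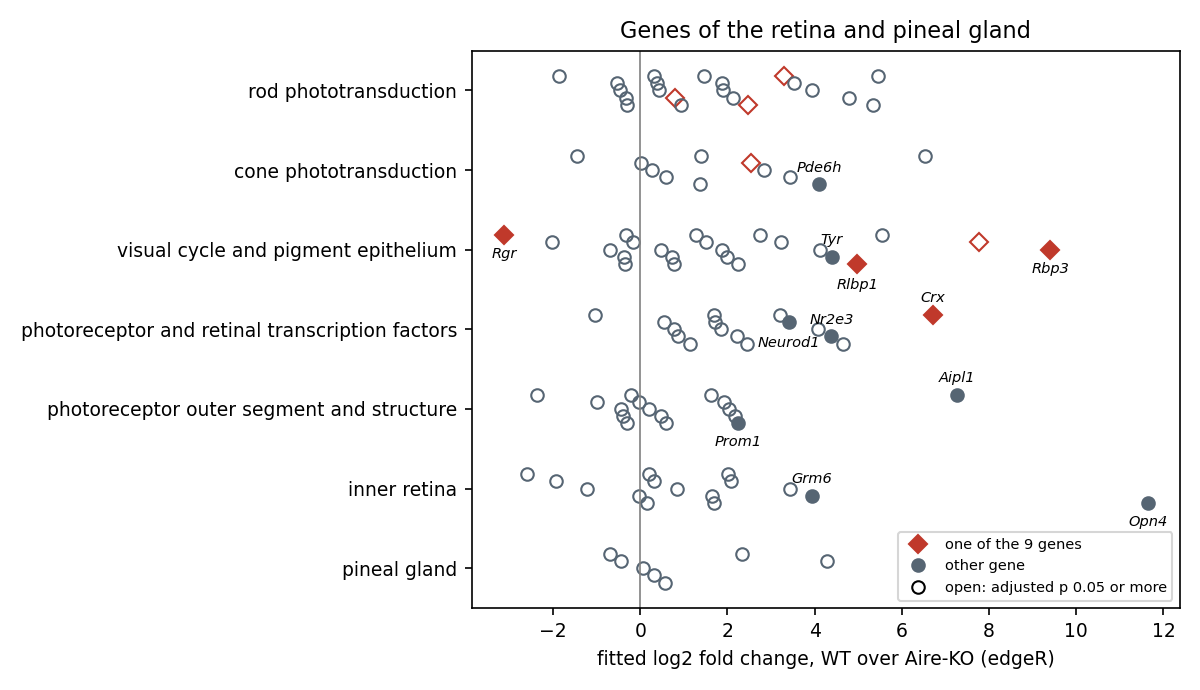
Fitted log2 fold change of WT over Aire-KO (edgeR) for each tested gene of 7 lists, with the 9 genes as red diamonds, other genes as grey circles and filled symbols for an adjusted p under 0.05. The filled symbols lie to the right of 0 apart from Rgr at −3.12, and the largest values (Opn4, Rbp3) are set by the prior count because both Aire-KO libraries had 0 reads.

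Markers of other cells moved with the genotype as well. Of 12 dendritic cell and macrophage markers tested, 3 (Itgam, Cd209a and Adgre1) were higher in WT and 0 lower, with a median log2 fold change of 1.33 and summed levels of 294 and 520 RPKM in WT 1 and WT 2 and 274 and 317 in Aire-KO 1 and Aire-KO 2. Of 10 fibroblast markers, 3 (Col1a2, Col3a1 and Dpt) were lower in WT and 0 higher, with a median of −1.52 and sums of 66.3 and 61.3 RPKM in WT against 121 and 136 in Aire-KO. The sums leave out Clec9a, which has no length here, and no marker of these lists was at 0 in all libraries. Of 14 thymocyte markers 0 passed in edgeR, but 6 were at an unadjusted p under 0.05, 7 were higher with the block, and 12 had both WT libraries above both Aire-KO libraries. Their median was 1.46 and their sums were 33.9 and 48.8 RPKM in WT 1 and WT 2 and 23.5 and 31.6 in Aire-KO 1 and Aire-KO 2. Of 6 endothelial markers 0 passed, with 0 at an unadjusted p under 0.05 and a median of −1.15, and of 5 B cell markers 0 passed, with 1 at an unadjusted p under 0.05 and a median of −0.11. Enpep was the 1 of 8 cortical epithelial markers higher in WT (median of the list 0.55). Of 17 mTEC markers 0 passed in edgeR, with 3 at an unadjusted p under 0.05 and a median of −0.40 (1 higher and 7 lower with the block). All of these stand beside the same 5.58% and 0.258% over all RefSeq IDs. The part of these cells in the values of the retinal genes was not tested.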

How the data were processed

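Per the labels and the study's methods, polyA+ RNA of sorted mTEChi was sequenced from a kit that does not keep the strand. The authors trimmed reads to 50 bp, mapped them to mm9 (Bowtie 1.0.0 in the submitters' processing notes, with CASAVA and bedtools) and deposited raw counts per RefSeq ID and per transcript part, with no normalization. A read is counted for each RefSeq ID that holds it. IDs were matched to symbols for 29348 of 30794 (95.3%). CPM, RPKM and d3’UTR ratios were computed from the deposited counts. Gene positions are those of GENCODE vM1 gene models on mm9, whose ends can differ from those of the RefSeq ID.

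Genotypes were compared in edgeR 4.0.16 (R 4.3.3), by the quasi-likelihood test with genotype as the only term, TMM factors and filterByExpr, over all RefSeq IDs, with Benjamini-Hochberg adjusted p under 0.05 as threshold. The standard error is the log2 fold change over the root of F. A fold against libraries at 0 uses 3 counts per library and is a lower bound for counting error. Each library pools 4 mice, and p-values measure the spread between 2 such pools. The test was checked on simulated data. Usage of d3’UTRs was tested by the interaction of region and genotype, for IDs with at least 10 reads in each region.

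The 2 genotypes of one experiment share a table and an experiment in the study, and their deviations from the group means correlated at 0.534 over 26790 IDs, so the experiment was taken as pairing them, in a fit with it as a block. Other alternatives were DESeq2 1.42.0, other scaling, no filter, 1 RefSeq ID per gene, each library left out, values within an experiment and, added after seeing the data, counts without d3’UTR reads.

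The members and lists were chosen with earlier results of these data known. Named genes were the 9, their nearest genes, the genes called and the 3 most abundant by RPKM in each list, and for Rbp3 and Rgr the 3 most alike among genes within 2-fold in RPKM (log2 of CPM + 0.5). Tables were handled with pandas 2.3.3 and numpy 2.4.6, and intervals computed with scipy 1.17.1, under Python 3.11.15.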

Additional observations from a re-analysis of the deposited data

How the results depend on the processing

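The calls of Rbp3, Rlbp1, Crx and Rgr held in all alternatives run across libraries, and no log2 fold change of the 9 genes changed sign. The count of the 9 called higher in WT was 3 and became 5 with library sizes alone, 5 with the replicate block, 6 with DESeq2 and between 4 and 7 with a library left out (7 without Aire-KO 1), while 1 stayed lower in all. Over all RefSeq IDs, 1495 higher and 69 lower became 2470 higher with library sizes alone, 143 lower without a filter, 4428 and 2777 with the block, 3438 and 603 with DESeq2, and 1524 to 3664 and 66 to 521 with a library left out. Over the retinal lists, 11 higher and 1 lower became 21 higher with library sizes alone, 39 and 12 with the block, 34 and 8 with DESeq2, 2 lower with DESeq2 size factors in edgeR, 3 lower without a filter, and 12 to 39 and 2 to 5 with a library left out. The change of Opn1sw d3’UTR usage lay between −2.35 and 0.026 with a library left out (−1.38 with all), where the upper value, without Aire-KO 1, rests on no Aire-KO read. Scaling by library sizes alone shifted the median over all IDs (log2) from −0.03 to 0.26. The cause of the other shifts was not tested. The block changed the calls of Gnat1 and Rcvrn and of no other of the 9 genes. With 2 libraries per genotype and 0 to 14 Aire-KO reads for Rbp3, Rpe65, Crx and Opn1sw, depth limits these folds to bounds or wide errors.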
